A study of Homo sapiens with 6 samples.

Results

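The ABC transporters that carry drugs and their conjugates out of the cell were followed in pancreatic cancer cell lines, taken as the genes ABCC1, ABCC2, ABCC3, ABCC4, ABCC5, ABCC10, ABCB1 and ABCG2. All 8 of 8 symbols were found among the 27408 genes of the deposited expression table, with 17 transcripts between them, and their gene totals and transcript shares were read in every library. The study asked what ESRP1 and ESRP2, paralogous RNA-binding proteins that set splice choices of epithelia, do in pancreatic cancer. RNA was sequenced from 6 libraries of the established human lines PANC-1 and MIA-PaCa2, in 3 forms each: overexpressing ESRP1, overexpressing ESRP2, or carrying the control construct LPCX. The labels list no treatment, and both lines grew in serum-containing medium. The sources used here do not say whether a form is 1 clone or a pool of cells. With 1 library per line and form, a comparison inside a line has no replicates.

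ABC transporters use ATP, bound at a pair of nucleotide-binding domains, to move substrates across membranes. ABCB1 (P-glycoprotein) exports unmodified hydrophobic drugs, and ABCG2 (breast cancer resistance protein) also exports drugs. Many ABCC proteins (the multidrug resistance proteins) export organic anions, among them drugs joined to glutathione, glucuronate or sulfate. In exocrine and biliary epithelium some of these pumps sit on the apical membrane and others on the basolateral one, and in tumours they are studied for drug resistance.

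Levels are TPM, an abundance scaled for transcript length and library size, so that genes can be compared within a library. Depth in reads is unknown. The libraries had 10578 to 10932 genes at 5 TPM or more. ESRP1 was at 491 TPM in PANC-1 ESRP1 and 367 TPM in MIA-PaCa2 ESRP1, against at most 0.261 TPM in the other 4 libraries. ESRP2 was at 308 TPM in PANC-1 ESRP2, against 34.8 TPM in PANC-1 LPCX, and at 197 TPM in MIA-PaCa2 ESRP2, against 0.0704 TPM in MIA-PaCa2 LPCX. Of the epithelial keratins of carcinomas, KRT8 was at 684 to 823 TPM in PANC-1 and 1772 to 2223 TPM in MIA-PaCa2, and KRT18 at 679.8 to 737 TPM in PANC-1 and 1421 to 1747 TPM in MIA-PaCa2. KRT19 was at 366 to 502 TPM in PANC-1 and 234 to 313 TPM in MIA-PaCa2, and KRT7 at 1.57 to 2.004 TPM in PANC-1 and 0.176 to 0.475 TPM in MIA-PaCa2. EPCAM was at 24.3 to 28.2 TPM in PANC-1 and at 0 in all MIA-PaCa2 libraries, and CDH1 at 3.89 to 8.59 TPM in PANC-1 and at most 0.173 TPM in MIA-PaCa2. Of the mesenchymal markers, VIM was at 4142.5 to 4738 TPM in PANC-1 and 5523 to 5620.3 TPM in MIA-PaCa2, and ZEB1 at 19.2 to 20.4 TPM in PANC-1 and 20.8 to 24.2 TPM in MIA-PaCa2. CDH2 was at 32.4 to 51.8 TPM in PANC-1 and at most 0.0212 TPM in MIA-PaCa2.

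The first comparison set PANC-1 against MIA-PaCa2 over all 3 forms. PANC-1 held more ABCC1, ABCC3, ABCC4, ABCC10 and ABCG2 RNA, MIA-PaCa2 held more ABCC2 RNA, and ABCB1 was near 0 in both lines. The 8 genes together came to 428, 420.0 and 422 TPM in PANC-1 with ESRP1, ESRP2 and LPCX, against 161, 152 and 147 TPM in MIA-PaCa2 with ESRP1, ESRP2 and LPCX. ABCC1 made up 61.5%, 61.8% and 58.9% of that sum in PANC-1 and 32.5%, 40.8% and 35.7% in MIA-PaCa2, in the same order of forms.

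**Figure D1:**
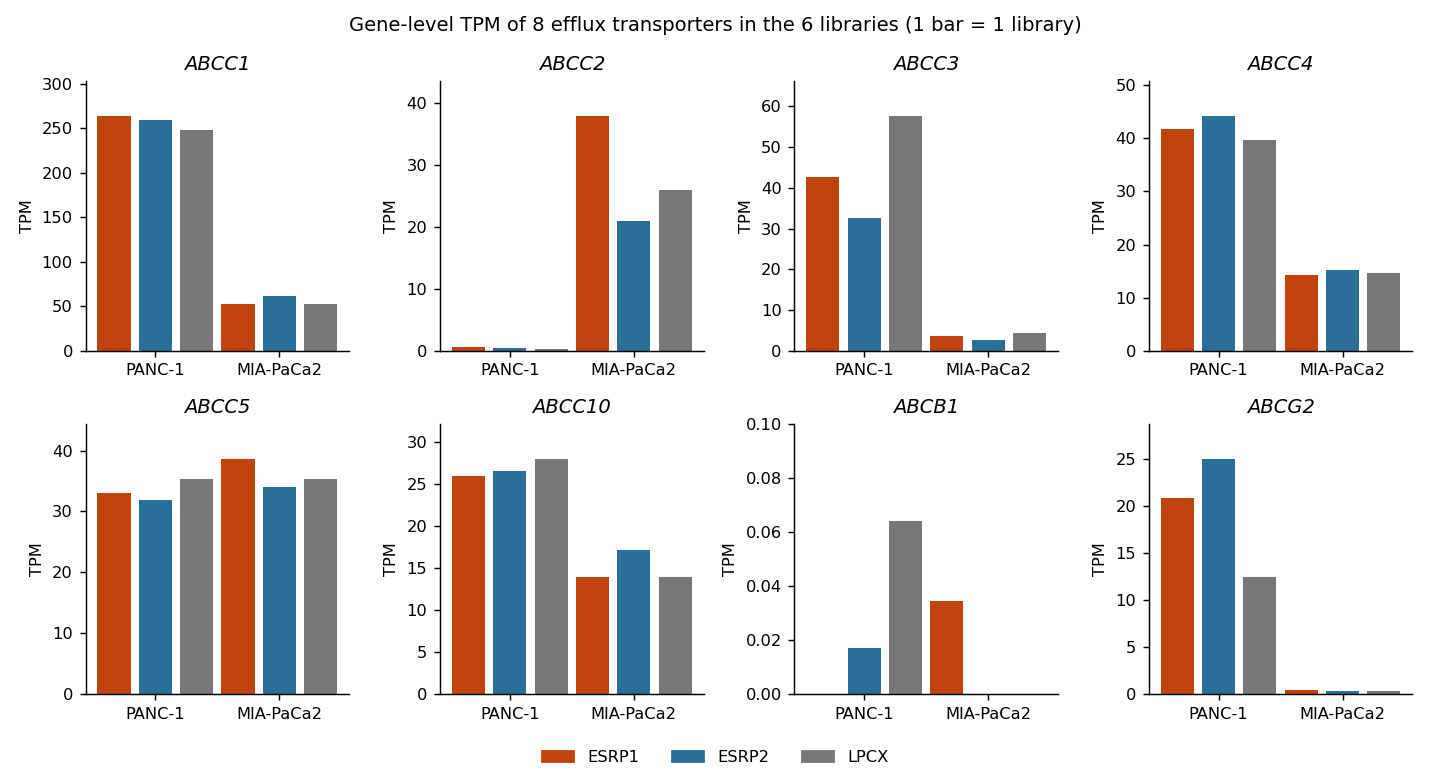
Gene-level TPM (linear axes from 0, each with its own scale) of the 8 transporters, 1 bar per library, with PANC-1 left of MIA-PaCa2 and ESRP1, ESRP2 and LPCX in that order. ABCC1 stands near 250 TPM in PANC-1 and near 55 TPM in MIA-PaCa2, ABCC2 is visible in MIA-PaCa2 and ABCG2 in PANC-1, and the ABCB1 axis ends at 0.1 TPM.

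ABCC1 (multidrug resistance protein 1, an exporter of glutathione conjugates and cysteinyl leukotrienes) lies at chr16:15949577-16143062 on the + strand of GRCh38. It was at 264, 259.5 and 248 TPM in PANC-1 with ESRP1, ESRP2 and LPCX, against 52.3, 62.0 and 52.5 TPM in MIA-PaCa2 with ESRP1, ESRP2 and LPCX. It was the most abundant of the 8 genes in every library, and the lines did not overlap. The means were 257 ± 7.93 TPM in PANC-1 and 55.6 ± 5.54 TPM in MIA-PaCa2 (SD, n = 3 libraries each, 1 of each form), a ratio of 4.62.

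ABCC4, an exporter of cyclic nucleotides and nucleotide analogues at chr13:95019829-95301446 on the - strand, was at 41.8, 44.2 and 39.8 TPM in PANC-1, against 14.3, 15.1 and 14.6 TPM in MIA-PaCa2, again with ESRP1, ESRP2 and LPCX in that order. ABCC10, which can carry taxanes and lies at chr6:43427554-43450430 on the + strand, was at 25.9, 26.4 and 27.9 TPM in PANC-1, against 13.9, 17.1 and 13.9 TPM in MIA-PaCa2. Both were higher in every PANC-1 library than in any MIA-PaCa2 library, by ratios of means of 2.85 for ABCC4 and 1.79 for ABCC10. ABCC5, an exporter of cyclic nucleotides and nucleoside monophosphates at chr3:183919934-184018015 on the - strand, was at 33.0, 31.8 and 35.3 TPM in PANC-1, against 38.6, 33.9 and 35.4 TPM in MIA-PaCa2. The ABCC5 values of the lines overlapped.

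ABCC3, a basolateral exporter of bile acids and glucuronides at chr17:50634857-50692252 on the + strand, was at 42.7, 32.7 and 57.6 TPM in PANC-1 with ESRP1, ESRP2 and LPCX, against 3.70, 2.63 and 4.42 TPM in MIA-PaCa2. Its means of 44.3 ± 12.5 TPM in PANC-1 and 3.58 ± 0.897 TPM in MIA-PaCa2 (SD, n = 3 each) stood in a ratio of 12.4. ABCG2 lies on the - strand, with transcript NM_004827 at chr4:88090269-88158912 and NM_001257386 at chr4:88090264-88231322. The gene was at 20.8, 24.9 and 12.5 TPM in PANC-1, against 0.412, 0.315 and 0.330 TPM in MIA-PaCa2. No MIA-PaCa2 library reached 1 TPM of ABCG2, and within PANC-1 the LPCX library was the lowest. ABCC2, an apical exporter of glutathione and glucuronide conjugates that carries conjugated bilirubin into bile, lies at chr10:99782640-99852594 on the + strand. It was at 0.530, 0.471 and 0.344 TPM in PANC-1, against 37.8, 20.9 and 25.9 TPM in MIA-PaCa2. The ABCC2 means were 0.448 ± 0.0947 TPM in PANC-1 and 28.2 ± 8.68 TPM in MIA-PaCa2 (SD, n = 3 each), so that ABCC2 ran opposite to ABCC3 and ABCG2. ABCB1, at chr7:87503859-87713248 on the - strand, was listed at 0, 0.0171 and 0.0641 TPM in PANC-1 and at 0.0343, 0 and 0 TPM in MIA-PaCa2, too low to order the libraries.

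By level, ABCC1 came first in PANC-1, with no overlap with any other member. ABCC3 overlapped both ABCC4 and ABCC5 there, while ABCC4 stayed above ABCC5, followed by ABCC10, ABCG2, ABCC2 and ABCB1 with no overlap between neighbours. In MIA-PaCa2 ABCC1 was again first without overlap, then ABCC5 and ABCC2, which overlapped, then ABCC10 and ABCC4, which overlapped, then ABCC3, ABCG2 and ABCB1.

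The line difference was tested with limma on log2 of TPM plus 1, with line and form as terms, over the 11829 genes that reached 5 TPM in 2 or more libraries, with Benjamini-Hochberg adjustment. Of the 8 transporters 7 were tested and ABCB1 was not. ABCC2, ABCC3 and ABCG2 entered through 1 line only, the one where they are high, so a difference between the lines was built into their entry. The test called 6 of 7 transporters, 5 higher and 1 lower in PANC-1, where it called 78.8% of all genes tested, 43.1% higher and 35.6% lower. The same 5 lay above and the same 1 below MIA-PaCa2 with no overlap, which held for 43.1% and 36.3% of all genes. These shares are therefore no mark of the transporters. The log2 change was 2.19 for ABCC1 (SE 0.0705, adjusted p = 5.96e-06, limma), a fold of 4.57. It was 3.29 for ABCC3 (SE 0.0841) and 3.86 for ABCG2 (SE 0.200), and -4.29 for ABCC2 (SE 0.165). ABCC4 had 1.45 (SE 0.0645) and ABCC10 0.80 (SE 0.0913, adjusted p = 0.000485, limma). ABCC5 had -0.10 (95% interval -0.28 to 0.07, adjusted p = 0.216, limma), an interval that holds 0. Of all genes 18.1% were called and at least 2-fold higher in PANC-1 and 12.3% called and at least 2-fold lower, against 4 and 1 of these 7. Their median log2 change was 1.45, beside 0.08 over all genes. The 2-fold counts and this median include ABCC2, ABCC3 and ABCG2, which entered through 1 line only.

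**Figure D2:**
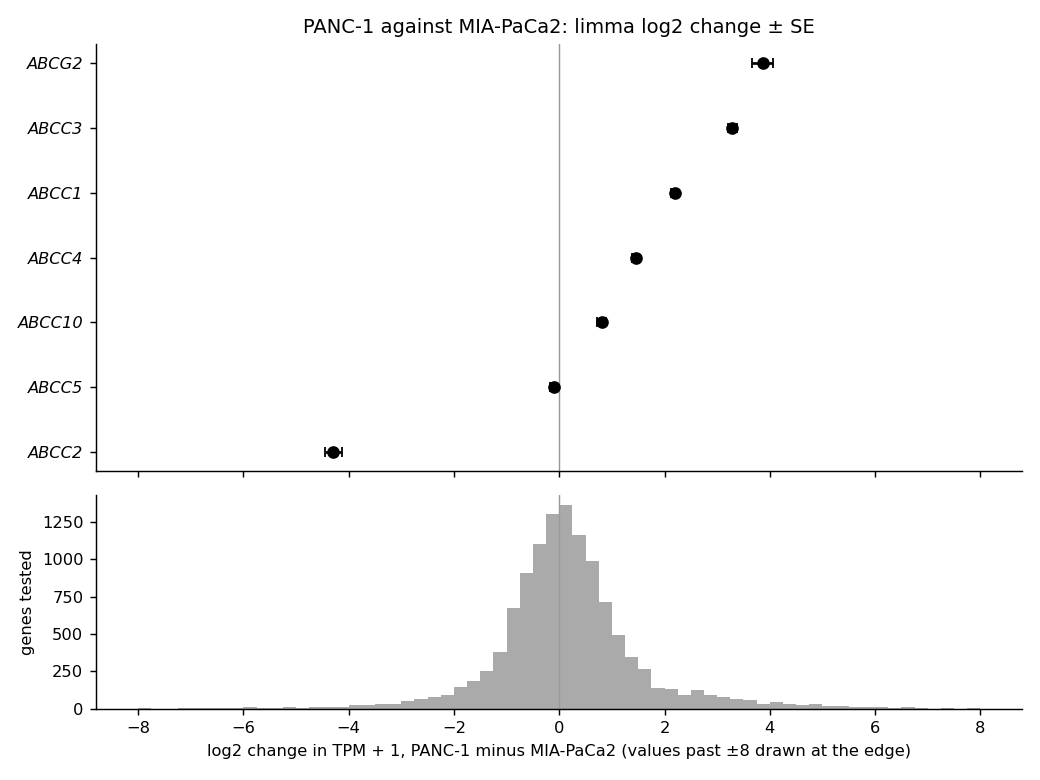
Upper panel, limma log2 change of TPM plus 1 in PANC-1 minus MIA-PaCa2 (points, with bars of 1 SE) for the 7 transporters tested. Lower panel, the number of genes tested at each log2 change, on the same axis. ABCG2, ABCC3 and ABCC1 lie at 3.86, 3.29 and 2.19, ABCC5 next to 0, and ABCC2 at -4.29.

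Adding 1 TPM before the log holds down the folds of the near-absent genes: with 0.1 TPM added, the log2 change was -5.66 for ABCC2 and 5.38 for ABCG2. All 6 calls held without any 1 library, which is no support for ABCC2, ABCC3 and ABCG2, since a difference was built into their entry. In bulk RNA, fewer cells with a transcript and less of it per cell cannot be told apart. Markers of other cell types also differed between the lines. The leukocyte markers PTPRC, CD3E and CD68 summed to 295 to 364 TPM in PANC-1 and 20.5 to 24.0 TPM in MIA-PaCa2. Nearly all of this was CD68. PTPRC was at most 0.0849 TPM in PANC-1 and 0.563 TPM in MIA-PaCa2. CD3E was at 0 in PANC-1 and at most 0.121 TPM in MIA-PaCa2. The 4 fibroblast markers summed to 66.7 to 108 TPM in PANC-1 and 0.524 to 0.879 TPM in MIA-PaCa2, nearly all of it COL1A1, with DCN at 0 in PANC-1. Acinar markers summed to 0.172 to 0.729 TPM in PANC-1 and to 0 in MIA-PaCa2, endothelial markers to 0.214 to 0.353 TPM in PANC-1 and 1.35 to 3.20 TPM in MIA-PaCa2, and hepatocyte and islet markers stayed below 0.2 TPM in both.

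Promoters are shown for ABCC2 and ABCG2, the genes with the widest range over the libraries. Promoter sequences from RefSeq (GRCh38.p14) were matched for 6 of 8 members. For each gene the RefSeq start nearest to that of 1 transcript was taken, NM_004827 for ABCG2. The other ABCG2 transcript, NM_001257386, starts at chr4:88231322, and its promoter was not searched. The 250 bases before each start were searched on both strands for 2 motifs. These were TGANNNNGC, the core of the antioxidant response element bound by NRF2, and GCGTG, the core bound by the aryl hydrocarbon receptor. Capitals mark the matches, read 5′ to 3′ on the gene's strand. The first window is chr10:99782390-99782639 (+) and the second chr4:88158910-88159159 (-).
ABCC2 promoter: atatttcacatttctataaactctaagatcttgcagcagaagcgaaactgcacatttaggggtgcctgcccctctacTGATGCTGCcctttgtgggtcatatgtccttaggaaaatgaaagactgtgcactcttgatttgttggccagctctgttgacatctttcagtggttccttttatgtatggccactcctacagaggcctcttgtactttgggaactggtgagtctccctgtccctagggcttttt
ABCG2 promoter: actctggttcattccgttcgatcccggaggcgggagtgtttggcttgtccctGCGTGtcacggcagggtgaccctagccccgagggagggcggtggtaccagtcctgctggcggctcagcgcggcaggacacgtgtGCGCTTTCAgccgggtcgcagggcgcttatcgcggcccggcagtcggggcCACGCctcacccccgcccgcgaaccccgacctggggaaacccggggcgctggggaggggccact
The ABCC2 window held 1 match to TGANNNNGC and 0 to GCGTG, and the ABCG2 window 1 and 2. These letters are common: TGANNNNGC occurred in 35.1% and GCGTG in 32.2% of 34943 promoter windows of this length. The ABCC4 and ABCC10 windows also held 1 and 2 matches each, and those of ABCC5 and ABCB1 held 0 of either. The start used lay 131 bases from that of the transcript for ABCC5, whose window runs into the transcript, and 47 bases for ABCB1.

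The receptor whose core GCGTG is, AHR, was at 11.1, 11.5 and 10.9 TPM in PANC-1 with ESRP1, ESRP2 and LPCX, against 0.390, 0.270 and 0.201 TPM in MIA-PaCa2 (log2 change 3.24, SE 0.122, limma). Of 7 xenobiotic receptors and partners tested out of 11, limma called 2 higher in PANC-1, AHR and ESRRA (0.60), and 3 lower, among them RXRA (-0.99) and PPARA (-0.60), where 43.1% of all genes were called higher and 35.6% lower. AHR reached 5 TPM in PANC-1 only and PPARA in MIA-PaCa2 only, so a difference between the lines was built into their entry. NR1I2, the pregnane X receptor, did not exceed 0.0286 TPM in any library. Of the NRF2 targets and glutathione synthesis genes 5 of 23 tested were higher in PANC-1 and 13 lower, with a median log2 change of -0.40. Among the higher ones was HMOX1 (2.41), which degrades haem, and the lowest were AKR1C1 (-6.93), a ketosteroid reductase, and GCLM (-2.55), a subunit of the enzyme that starts glutathione synthesis. AKR1C1 entered the test through MIA-PaCa2 only, with the same limit as AHR and PPARA. GCLM was at 28.4, 28.7 and 24.99 TPM in PANC-1, against 180.4, 159 and 157 TPM in MIA-PaCa2. Of the transporters that carry glutathione conjugates, ABCC1 was thus higher and ABCC2 lower in PANC-1, as given above.

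Of the enzymes that attach glutathione, glucuronate, sulfate or methyl groups, 6 of 16 tested were higher and 7 lower in PANC-1. GSTM3 (1.502) and GSTT1 (1.28) headed the list and GSTM1 (-4.85) and GSTA4 (-1.81), also glutathione transferases, closed it. These counts, and those that follow, stand beside 43.1% of all genes called higher and 35.6% lower. Of the carriers that bring drugs and other solutes into or across cells, 1 of 7 tested was higher, SLC22A18 (1.24), and 6 were lower. The lowest was SLCO1B3 (-3.85), an importer of bile acids and drugs, at 1.60, 1.13 and 0.775 TPM in PANC-1, against 27.5, 35.3 and 27.4 TPM in MIA-PaCa2. SLC19A1, the reduced folate carrier, followed at -1.45. Among the proteins that anchor pumps at the membrane or are named with them, 3 of 7 were higher, RDX (radixin) at 1.26 among them, and 4 lower, among them EZR (ezrin) at -0.76. Among 21 other ABC transporters tested 7 were higher and 9 lower. TAP1 (1.38), a peptide transporter of antigen presentation, was among the higher ones, and the lipid transporter relatives ABCA10 (-3.17) and ABCA8 (-3.08) were the lowest. Of the genes named here, GSTM1, GSTA4, SLCO1B3, ABCA10 and ABCA8 reached 5 TPM in MIA-PaCa2 only. A difference between the lines was thus built into their entry.

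The second question was whether either ESRP moved the transporters. Neither did so past the test in both lines together. Limma called 0 of 7 transporters for ESRP1 against LPCX, where 1 gene of all tested (0.00845%) was called. For ESRP2 against LPCX it again called 0 of 7, where 0.0169% of genes were called, which is 2 genes. The number of all genes called for ESRP2 was 30 without MIA-PaCa2 ESRP2, 13 without PANC-1 ESRP2 and 0 without any other single library. At an unadjusted p under 0.05 there was 1 of 7 for ESRP1, beside 6.93% of all genes, and 1 of 7 for ESRP2, beside 13.8%, and both times it was ABCC3. Both comparisons in a line use the same LPCX library.

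ABCC3 was lower than LPCX in each of the 4 ESRP libraries, at the TPM values given above. Its log2 change was -0.31 for ESRP1 (SE 0.103, adjusted p = 0.658, limma) and -0.69 for ESRP2 (SE 0.103, adjusted p = 0.329, limma), so that neither passed after adjustment over all genes. Over the alternatives the adjusted p for ESRP2, limma throughout, was 0.185 or more. In TPM the ratio to LPCX was 0.741 for ESRP1 and 0.567 for ESRP2 in PANC-1, and 0.838 with ESRP1 and 0.596 with ESRP2 in MIA-PaCa2, where the gene stayed under 5 TPM.

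ABCG2 in PANC-1 stood 1.67 times the LPCX level with ESRP1 and 2.00 times with ESRP2. On log2 of TPM plus 1 these are 0.69 and 0.94, higher than 99.3% and 99.6% of genes with at least 5 TPM in either library, without replicates. In MIA-PaCa2 the ABCG2 values lay under 0.5 TPM and their log2 ratios were 0.09 with ESRP1 and -0.02 with ESRP2. Over both lines limma gave 0.39 for ESRP1 (95% interval -0.22 to 1.004, adjusted p = 0.681) and 0.46 for ESRP2 (95% interval -0.15 to 1.08, adjusted p = 0.428). The spread behind these intervals includes the disagreement between the lines. The PANC-1 LPCX library is the denominator of both PANC-1 ratios. Without it, the LPCX level came from MIA-PaCa2 alone, where ABCG2 lay under 0.5 TPM. The ABCG2 change was then -0.0023 for ESRP1 and 0.07 for ESRP2. That fit cannot show whether the PANC-1 ratios hang on the PANC-1 LPCX library. Without PANC-1 ESRP2, which left the ESRP2 level to MIA-PaCa2, the change was 0.14 for ESRP2.

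ABCC2 in MIA-PaCa2 was 1.46 times its LPCX level with ESRP1 and 0.810 times with ESRP2. The log2 change over both lines was 0.36 for ESRP1 (95% interval -0.15 to 0.86) and -0.08 for ESRP2 (95% interval -0.59 to 0.43), and the PANC-1 values behind it lay under 1 TPM. Leaving out MIA-PaCa2 ESRP1 gave 0.08 for ESRP1 and leaving out PANC-1 ESRP1 gave 0.64. For ABCC1, ABCC4, ABCC5 and ABCC10 the log2 changes for ESRP1 were 0.04, 0.02, 0.01 and -0.05 in that order, with 95% intervals that reached at most 0.33 on either side of 0. For ESRP2 they were 0.15, 0.10, -0.10 and 0.11, with 95% intervals that reached at most 0.39.

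Counted within a line among members with at least 5 TPM in either library, 0 of 6 in PANC-1 and 0 of 5 in MIA-PaCa2 lay 2-fold from LPCX in TPM plus 1 with either ESRP. The share of all genes past 2-fold was 1.51% for PANC-1 ESRP1, 1.96% for PANC-1 ESRP2, 1.28% for MIA-PaCa2 ESRP1 and 1.62% for MIA-PaCa2 ESRP2. Past 1.5-fold were ABCG2 in PANC-1 ESRP1 (1 of 6, beside 3.24% of genes) and ABCG2 and ABCC3 in PANC-1 ESRP2 (2 of 6, beside 4.39%). In MIA-PaCa2 none of the 5 passed 1.5-fold, beside 2.92% of genes with ESRP1 and 3.98% with ESRP2. The median log2 ratio of all genes was 0.09, 0.10, 0.04 and 0.05 in the same order of comparisons. Transcripts without a coding sequence took 9.82% and 10.1% of all TPM in PANC-1 ESRP1 and ESRP2, against 12.97% in PANC-1 LPCX. In MIA-PaCa2 ESRP1 and ESRP2 they took 9.39% and 12.1%, against 11.1% in MIA-PaCa2 LPCX. Over the alternatives, coding transcripts alone among them, the PANC-1 log2 ratios lay at 0.67 to 0.73 (ESRP1) and 0.94 to 0.99 (ESRP2) for ABCG2, and at -0.45 to -0.42 (ESRP1) and -0.82 to -0.80 (ESRP2) for ABCC3.

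**Figure D3:**
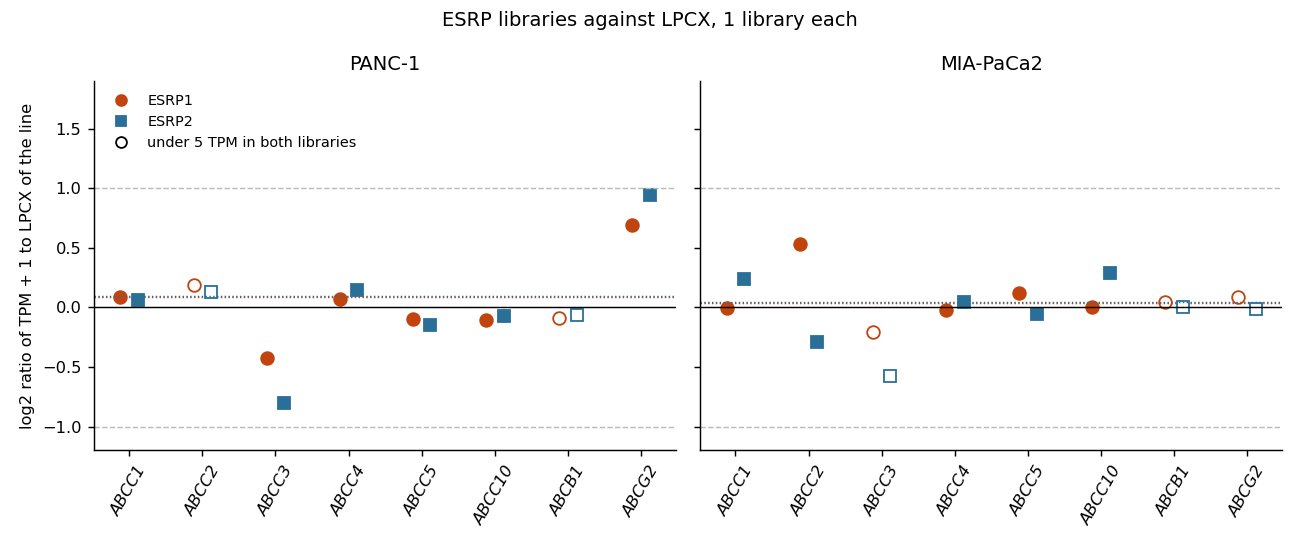
Log2 ratio of TPM plus 1 between each ESRP library (circles ESRP1, squares ESRP2) and the LPCX library of the same line, 1 library each, so without error bars. Open symbols are under 5 TPM in both libraries, dotted lines give the median of all genes and dashed lines 2-fold. ABCG2 lies highest (0.69 and 0.94) and ABCC3 lowest (-0.42 and -0.80) in PANC-1, and ABCC2 has 0.53 and -0.29 in MIA-PaCa2.

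The paralogs were then set against each other. Limma called 0 of 7 transporters for ESRP1 against ESRP2, where 0.00845% of genes were called (1 gene, against 23 without PANC-1 ESRP2 and 9 without MIA-PaCa2 ESRP2), and 1 of 7, ABCC3, had an unadjusted p under 0.05, beside 4.2% of genes. The ABCC3 log2 change was 0.37 (95% interval 0.11 to 0.63, adjusted p = 0.952, limma), with ESRP1 above ESRP2 by 0.37 in PANC-1 and by 0.37 in MIA-PaCa2. The MIA-PaCa2 value rests on 3.70 TPM with ESRP1 and 2.63 TPM with ESRP2, both under 5 TPM. ABCC2 had 0.44 (95% interval -0.07 to 0.95, adjusted p = 0.952, limma), with 0.06 in PANC-1 and 0.82 in MIA-PaCa2. Leaving out either MIA-PaCa2 ESRP library gave 0.14 (ESRP2) and 0.16 (ESRP1), and leaving out either PANC-1 ESRP library gave 0.74 (ESRP2) and 0.72 (ESRP1). For ABCC1, ABCC4, ABCC5, ABCC10 and ABCG2 the changes were -0.11, -0.08, 0.12, -0.16 and -0.07, and all their 95% intervals held 0. The ABCG2 interval, -0.69 to 0.54, was the widest of these.

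None of the 6 lists of related genes had a member called by limma for ESRP1 against LPCX, ESRP2 against LPCX or ESRP1 against ESRP2. At an unadjusted p under 0.05 there were 5 of their 81 tested genes for ESRP1, 9 for ESRP2 and 2 for ESRP1 against ESRP2, beside 6.93%, 13.8% and 4.2% of all genes. Median log2 changes for ESRP1 lay between -0.04 (uptake carriers) and 0.12 (anchors), beside 0.06 over all genes, and for ESRP2 between -0.09 (conjugating enzymes) and 0.14 (anchors), beside 0.06. The peptide transporter TAP2 was highest among the other ABC genes for ESRP1, at 128 TPM in PANC-1 ESRP1, against 102 TPM in PANC-1 LPCX, and 64.8 TPM in MIA-PaCa2 ESRP1, against 50.6 TPM in MIA-PaCa2 LPCX (log2 change 0.34, adjusted p = 0.658, limma).

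Since ESRPs act on splicing, transcript shares were read next, as the percentage of a gene's TPM. ABCC1, ABCC2 and ABCB1 have 1 transcript each in the table, so no share can be given for them. The other 5 members have more than 1. Shares come from the authors' quantification, which divides reads between overlapping transcripts.

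ABCC5 was the member with the most mixed output. NM_005688 encodes the full-length pump of 1437 residues. NM_001023587 and the non-coding NR_135125 are short transcripts of 7 exons each that share their first 5 exons and last exon in GENCODE release 29, where NM_001023587 encodes 208 residues and NR_135125 is paired with a model annotated for nonsense-mediated decay. They differ at the acceptor of exon 6, and the acceptors lie 77 bases apart. The first bases of exon 6 in each are shown, since the pair differs there. Both are on the - strand of GRCh38, the upper at chr3:183985411-183985455, with the bases present in that transcript alone in capitals, and the lower at chr3:183985346-183985378, in lower case.
ABCC5 NR_135125: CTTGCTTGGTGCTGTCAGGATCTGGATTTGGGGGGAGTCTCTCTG
ABCC5 NM_001023587: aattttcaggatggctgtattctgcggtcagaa

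NM_005688 took 57.5%, 60.9% and 53.5% of ABCC5 in PANC-1 with ESRP1, ESRP2 and LPCX, against 63.6%, 62.9% and 61.3% in MIA-PaCa2 with ESRP1, ESRP2 and LPCX. NM_001023587 took 19.2%, 23.2% and 24.8% in PANC-1, against 6.51%, 5.68% and 16.1% in MIA-PaCa2. NR_135125 took 22.1%, 15.3% and 19.6% in PANC-1, against 27.3%, 30.02% and 21.5% in MIA-PaCa2. The NM_005688 share was thus 53.5% or more everywhere, and the short pair was divided differently in the lines. NM_001320032, paired with the same full-length model, took at most 2.52%. With it the full-length share ran from 55.6% in PANC-1 LPCX to 66.1% in MIA-PaCa2 ESRP1. Of the short pair, NM_001023587 was 46.4%, 60.2% and 55.9% in PANC-1, against 19.2%, 15.9% and 42.8% in MIA-PaCa2. The low values were those of MIA-PaCa2 ESRP1 and ESRP2, where NM_001023587 was at 2.51 and 1.93 TPM, against 5.71 TPM in MIA-PaCa2 LPCX.

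**Figure D4:**
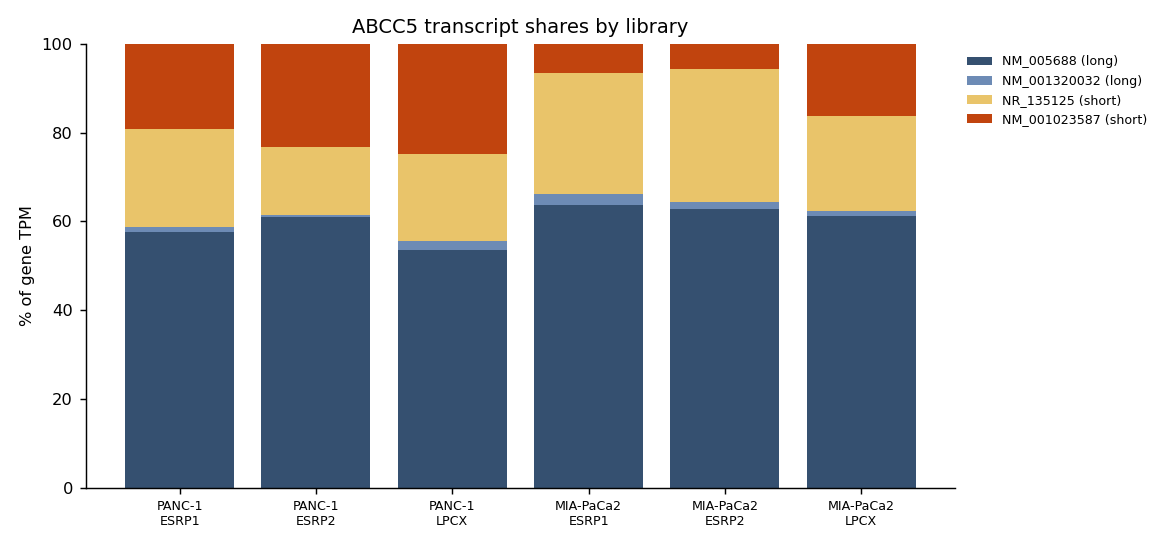
Share of ABCC5 TPM (%, stacked to 100) taken by its 4 transcripts in each library, PANC-1 left of MIA-PaCa2. The segment of NM_001023587 at the top is 19.2% to 24.8% in PANC-1, 16.1% in MIA-PaCa2 LPCX, and 6.51% and 5.68% in MIA-PaCa2 ESRP1 and ESRP2.

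The shares were tested with limma, as log2 odds against the other transcripts of the gene, over 12965 transcripts, of which 7 belong to ABCC4, ABCC5 and ABCC10. Between the lines 1 of 7 was called, NM_001023587, with log2 odds of 1.47 in PANC-1 against MIA-PaCa2 (SE 0.325, adjusted p = 0.0426), where 17.3% of all transcripts were called. Leaving out any 1 library ended this call (adjusted p between 0.0599 and 0.150, limma), and with a pseudocount of 0.1 TPM (0.0634) or no minimum share (0.0503). For ESRP1 against LPCX limma called 0 of 7, where 0.00771% of transcripts were called, and for ESRP2 against LPCX 0 of 7, where 0.0% were called. None of the 7 had an unadjusted p under 0.05 in either, beside 5.71% and 6.36% of all transcripts. NM_001023587 had log2 odds of -0.88 for ESRP1 (SE 0.399, adjusted p = 0.880, limma) and -0.79 for ESRP2 (SE 0.399, adjusted p = 0.806, limma). Without MIA-PaCa2 LPCX these were -0.33 and -0.23, and without PANC-1 LPCX -1.44 and -1.34. Without MIA-PaCa2 ESRP2 the value for ESRP2 was -0.33, and without PANC-1 ESRP2 it was -1.24. For ESRP1 against ESRP2 limma called 0 of 7 and 0.0% of all, with 0 of 7 and 4.49% at an unadjusted p under 0.05.

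Within a line, a difference of 10 percentage points or more was counted as a moved share. In MIA-PaCa2 ESRP2 1 of the 7 had moved, NM_001023587 by -10.5 points, where 14.7% of all transcripts had moved. In MIA-PaCa2 ESRP1 the same transcript differed by -9.63 points and 0 of 7 reached the step, beside 12.9% of all. In PANC-1 0 of 7 reached it, beside 10.8% with ESRP1 and 12.1% with ESRP2, and the differences of the 7 lay between -5.64 and 4.07 points with ESRP1 and between -6.43 and 7.44 points with ESRP2. These counts are at or under those of all transcripts.

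ABCC3 has a full-length transcript, NM_003786, of 1527 residues and a short one, NM_001144070, of 572 residues. The short one reads past an exon end that the full-length one splices, and the stretch is shown because it is the coding sequence that only the short form has. It lies at chr17:50667728-50667838 on the + strand of GRCh38 (GENCODE release 29). Capitals mark the 81 coding bases past the exon end used by NM_003786.
ABCC3 NM_001144070: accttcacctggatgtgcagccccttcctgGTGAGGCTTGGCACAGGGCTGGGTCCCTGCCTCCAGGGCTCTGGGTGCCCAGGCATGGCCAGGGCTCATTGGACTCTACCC
The short form took 31.8%, 32.4% and 32.0% of ABCC3 in PANC-1 with ESRP1, ESRP2 and LPCX, against 34.8%, 13.7% and 22.4% in MIA-PaCa2 with ESRP1, ESRP2 and LPCX. The PANC-1 shares were within 1 point of each other while the gene total differed, at 42.7, 32.7 and 57.6 TPM. In MIA-PaCa2 the whole gene was under 5 TPM, and its shares were not tested.

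ABCC4 also has a short form, NM_001105515, with 859 residues in place of the 1325 of NM_005845. Its last exon holds coding bases that NM_005845 lacks. The coding part of that exon, in capitals, is set beside as many bases of the exon that NM_005845 uses next, in lower case, both on the - strand of GRCh38. The first lies at chr13:95096138-95096179 and the second at chr13:95083249-95083290.
ABCC4 NM_001105515: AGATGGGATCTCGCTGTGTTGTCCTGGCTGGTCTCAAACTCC
ABCC4 NM_005845: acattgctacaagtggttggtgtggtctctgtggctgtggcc
NM_001105515 took 22.6%, 22.8% and 19.0% of ABCC4 in PANC-1 with ESRP1, ESRP2 and LPCX, against 20.3%, 12.95% and 13.1% in MIA-PaCa2 with ESRP1, ESRP2 and LPCX. The lines overlapped, since MIA-PaCa2 ESRP1 lay above PANC-1 LPCX. Another short ABCC4 transcript, NM_001301830 of 784 residues, took at most 3.45%, in MIA-PaCa2 LPCX. Whether it holds the bases shown was not checked. ABCC10 was mostly NM_001198934 of 1492 residues, at 82.9%, 86.8% and 85.4% in PANC-1, against 79.1%, 84.6% and 78.6% in MIA-PaCa2, and the rest was NM_033450 of 1464 residues. ABCG2 in PANC-1 was mostly NM_004827 of 655 residues, at 91.6%, 94.6% and 90.3%. The ABCG2 difference between forms in PANC-1 lay in this transcript, at 19.0 TPM with ESRP1 and 23.6 TPM with ESRP2, against 11.3 TPM with LPCX.

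**Figure D5:**
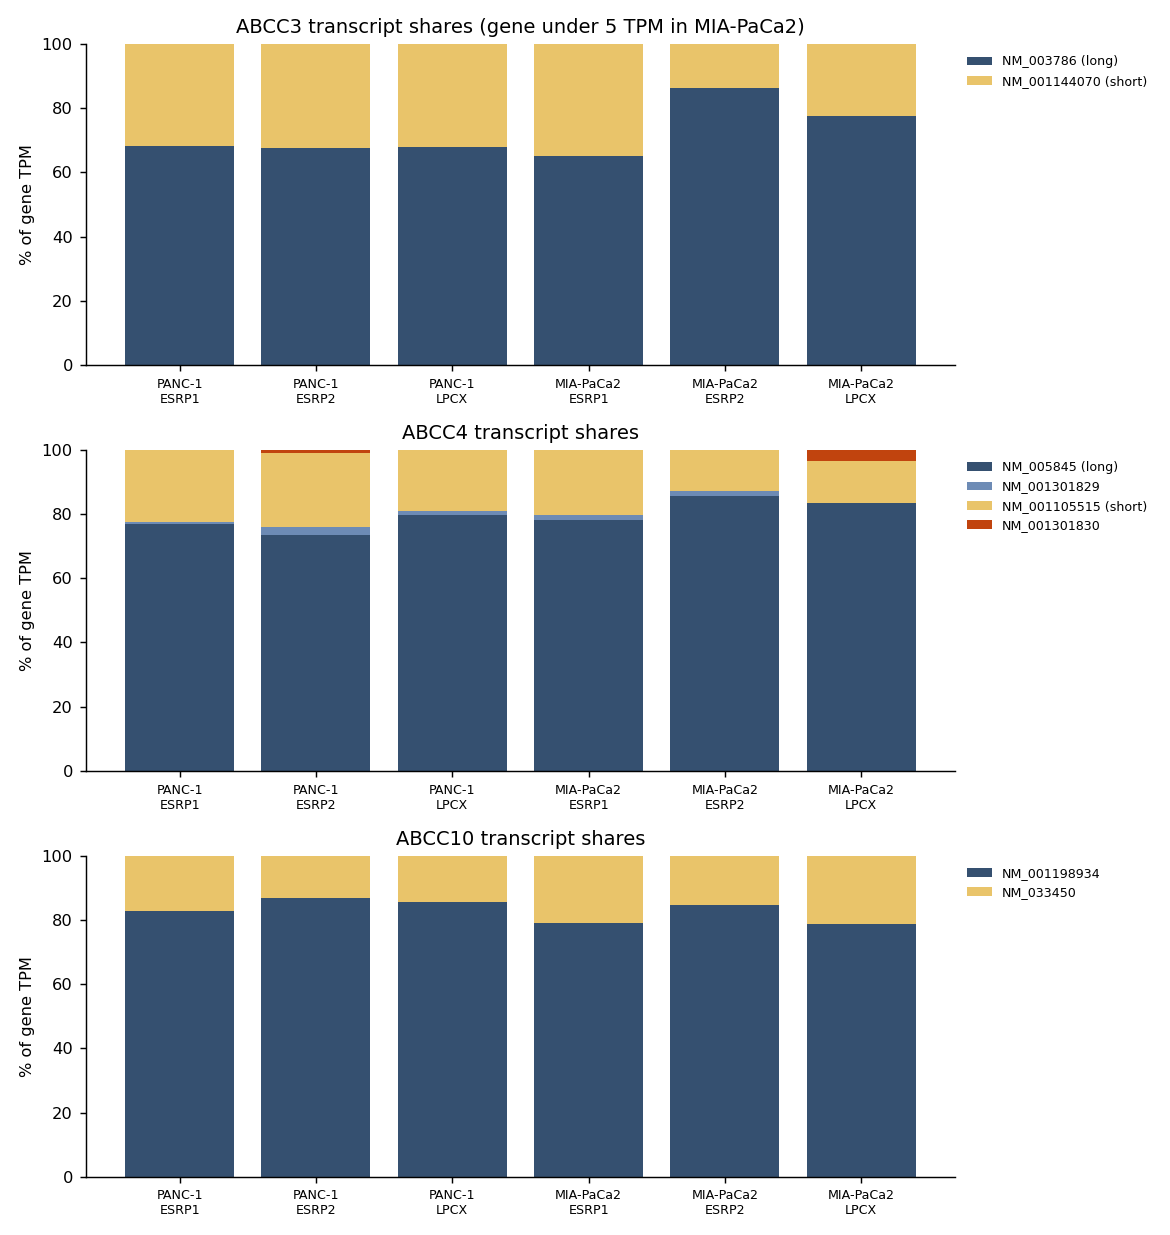
Share of gene TPM (%, stacked to 100) taken by the transcripts of ABCC3, ABCC4 and ABCC10 in each library, PANC-1 left of MIA-PaCa2. The short ABCC3 form is level at 31.8% to 32.4% in PANC-1 and spreads between 13.7% and 34.8% in MIA-PaCa2, where the gene is under 5 TPM.

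The genes whose log2 of TPM plus 1 ran most like ABCC2 and ABCG2, the members with the widest range, were listed by Pearson r over the 6 libraries, as a description. For ABCC2 they were PSMD7, NAE1 and BABAM1, each with r of 0.9998 or more, and 2596 of 11828 genes had r over 0.95. PSMD7, a proteasome subunit, was at 126, 125 and 124 TPM in PANC-1 with ESRP1, ESRP2 and LPCX, against 230.4, 208 and 215 TPM in MIA-PaCa2. For ABCG2 they were APOL2, ADGRG2 and DBNL, and 3523 genes had r over 0.95. ADGRG2, an adhesion G protein-coupled receptor, was at 14.7, 16.6 and 9.05 TPM in PANC-1, against 0.138, 0.110 and 0.0953 TPM in MIA-PaCa2, with LPCX the lowest form of PANC-1, as for ABCG2. The 6 libraries fall into 2 lines, which differ for both transporters and for the genes named with them.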

How the data were processed

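The 6 libraries were made with a TruSeq mRNA kit, per the labels' protocols. Salmon was used with GRCh38 (hg38), per the submitters' processing notes, with no version or annotation stated. The table holds the authors' TPM of RefSeq transcripts, a normalized unit other than counts, in 67792 lines. Of these 8664 repeat a transcript with identical values and were dropped, leaving 59128. TPM were summed per gene symbol. Columns were matched by line and construct. The headers of MIA-PaCa2 LPCX and MIA-PaCa2 ESRP2 are misspelled and were assigned by elimination, and the endings N and T of the headers are unexplained. TPM keeps no depth, so no counting interval can be given.

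limma 3.58.1 (R 4.3.3) modelled log2(TPM + 1) by line and construct with a mean-variance trend, for genes that reached 5 TPM in 2 or more libraries, which left 2 residual degrees of freedom. With 1 library per line and form, the spread is how far the differences between forms disagree between the lines. It holds technical scatter and any effect present in 1 line only, which cannot be told apart. An effect in 1 line only thus widens the SE and intervals. Shares used log2 odds with 0.5 TPM added, for transcripts with at least 10% in some library of genes with at least 2 transcripts and 5 TPM in every library. Calls were made at a Benjamini-Hochberg adjusted p of 0.05 per contrast, and the fit was tested on simulated data. Other pseudocounts, filters and scalings, coding transcripts alone, a fit without trend or block, and leaving out each library were the alternatives. Transcripts were paired with GENCODE release 29 models. All 8 members are named, and of each related list the 2 highest and 2 lowest tested genes per contrast could be, though some are not reported here. Members and lists were chosen with earlier results of these data known.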

Additional observations from a re-analysis of the deposited data

Results flagged for a closer look

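Some transporters lay on opposite sides of LPCX in the lines, each with 1 library per form, and the difference between the lines was not tested. Those with at least 5 TPM in either library of the comparison in both lines come first. With ESRP1 the log2 ratio of TPM plus 1 to LPCX was 0.086 in PANC-1 and -0.0071 in MIA-PaCa2 for ABCC1, and 0.070 in PANC-1 and -0.025 in MIA-PaCa2 for ABCC4. For ABCC5 it was -0.095 in PANC-1 and 0.12 in MIA-PaCa2. For ABCC10 it was -0.10 in PANC-1 and 0.0012 in MIA-PaCa2 with ESRP1, and -0.074 in PANC-1 and 0.29 in MIA-PaCa2 with ESRP2. With median ratio scaling the ABCC10 value of MIA-PaCa2 ESRP1 was -0.0067, on the same side as PANC-1. Others on opposite sides lay under 5 TPM in at least 1 line. With ESRP2, ABCG2 was at 0.94 in PANC-1 and -0.016 in MIA-PaCa2, and ABCC2 at 0.13 in PANC-1 and -0.29 in MIA-PaCa2. With ESRP1, ABCB1 was at -0.090 in PANC-1 and 0.049 in MIA-PaCa2, from levels near 0 TPM in both. The medians of all genes in these comparisons lay between 0.04 and 0.10.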

How the results depend on the processing

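The number of transporters called stayed at 6 between the lines and at 0 for ESRP1 against LPCX, ESRP2 against LPCX and ESRP1 against ESRP2 under every alternative run, among them leaving out each library. Without the replicate block, that is with the other factor left out (the line for the construct comparisons), these counts of calls were again 6 and 0. In the runs with the 5 TPM filter, a difference between the lines was built into the entry of ABCC2, ABCC3 and ABCG2. With the filter at 1 TPM this still held for ABCC2, at most 0.530 TPM in PANC-1, and ABCG2, at most 0.412 TPM in MIA-PaCa2. The unchanged count is thus no support for these calls in those runs. The 1 share call between the lines became 0 with 0.1 TPM added and with no minimum share, was 0 to 0 when 1 library was left out, and stayed 1 without the block; the cause was not tested.

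Some values that were not called turned sign, among them ABCG2 for ESRP1 against LPCX, at 0.39 with all libraries. That turn came without PANC-1 LPCX, which left the LPCX level to MIA-PaCa2 LPCX, where ABCG2 was at 0.330 TPM. With coding transcripts only, ABCC5 was at -0.064 for ESRP1 against LPCX and 0.029 between the lines, and with median ratio scaling it was at -0.0054 for ESRP1. With 0.1 TPM added, ABCC2 was at 0.030 for ESRP2 against LPCX and ABCG2 at 0.021 for ESRP1 against ESRP2. With 1 library left out, ESRP1 against LPCX ranged over -0.050 to 0.13 for ABCC1, -0.026 to 0.071 for ABCC4, -0.073 to 0.098 for ABCC5, -0.17 to 0.065 for ABCC10 and -0.0023 to 0.78 for ABCG2. ESRP2 against LPCX ranged over -0.38 to 0.22 for ABCC2 and -0.048 to 0.26 for ABCC10. ESRP1 against ESRP2 ranged over -0.40 to 0.25 for ABCG2 and -0.55 to 0.36 for the log2 odds of ABCC5 NM_001023587. Where a library was left out, the lone library of that form is assumed to vary like the others. The unknown depth limits what can be said of ABCB1 and of the low line of ABCC2 and ABCG2.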

Other observations

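Genes within 1 Mb of each transporter, a window chosen after the data were opened, are given as values. Around ABCC4 8 of 8 genes tested had a higher fitted level in PANC-1, 7 of them called higher, with a median log2 change of 1.52, beside 1.45 for ABCC4 itself. Around ABCC2 16 of 18 were higher and 15 called higher, with a median of 0.91, while ABCC2 stood at -4.29. Around ABCG2 3 of 8 were higher and all 8 were called, 3 higher and 5 lower, with ABCG2 at 3.86. Around ABCC3 20 of 25 were higher, with a median of 0.39, and around ABCC1 4 of 10, with a median of -0.04. Around ABCC5 15 of 20 were higher, 9 called higher and 4 called lower, with ABCC5 at -0.10. Around ABCC10 24 of 35 were higher, 17 called higher and 8 called lower, and around ABCB1 6 of 8 were higher, 6 called higher and 1 called lower. Over all genes tested 6380 of 11829 were higher in PANC-1, and 43.1% were called higher and 35.6% lower.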
